A study of Mus musculus with 6 samples.

Results

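The 10 genes described here encode proteins that take part in the removal of superoxide and peroxides in mouse cells. They are the peroxiredoxins Prdx1, Prdx2, Prdx3, Prdx4, Prdx5 and Prdx6, thioredoxin (Txn1), the superoxide dismutases Sod1 and Sod2, and catalase (Cat). They were taken by gene name from a table of 34745 genes, and each name had 1 row. All 10 had enough counts to be tested. RNA sequencing measured gene expression in cultured spermatogonial stem cells, from which sperm production is renewed, of strain DBA/2J X c57BL/6J. The mice were at postnatal day 6 and the cultures at passages 15 to 20. There were 3 libraries from cultures given 100 µM bisphenol A (BPA), a plastics monomer studied as an endocrine disruptor, for about 4 days, and 3 libraries from untreated cultures. The labels name no vehicle for the untreated cultures, so an effect of a solvent cannot be told apart from that of BPA. Whether replicates came from separate cultures or animals is not stated either. The spread behind each p-value is therefore that between these libraries, and it may be technical.

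Superoxide dismutases turn superoxide into hydrogen peroxide, SOD1 in the cytosol with copper and zinc and SOD2 in mitochondria with manganese. Catalase in peroxisomes and the peroxiredoxins in several compartments then break the peroxide down. Most peroxiredoxins do so with a reactive cysteine that thioredoxin reduces again, and thioredoxin reductase recharges thioredoxin with NADPH. In the testis these enzymes are known for protecting germ cells, whose membranes and DNA are sensitive to oxidation.

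Library totals were 14232872 to 22286517 counts under BPA and 13453280 to 19183912 counts in untreated cultures. BPA replicate 2 stood apart from the other libraries: its counts differed from those of the other BPA libraries by a chi-square per degree of freedom of 69.5 and 94.7, and the other replicate pairs by 19.0 to 25.5. Counts per gene are given below as CPM, that is, relative to the library total after scaling by the trimmed mean of M-values. All 14 markers of germ cells and spermatogonia looked up were counted, and by the edgeR test described below 4 were lower under BPA, 1 was higher and 9 did not pass, where 10.6% of all tested genes passed in either direction. The lower ones were Nanos3, at 40.2 ± 8.52 CPM under BPA and 252 ± 17.9 CPM in untreated cultures, Pou5f1, at 13.7 ± 0.694 and 62.5 ± 7.62 CPM, Id4, at 13.1 ± 0.978 and 26.4 ± 3.59 CPM, and Uchl1, at 387 ± 60.6 and 684 ± 27.4 CPM. Sall4 was higher, at 89.5 ± 23.0 CPM under BPA and 50.6 ± 8.31 CPM in untreated cultures. Among those that did not pass, Dazl was at 218 ± 96.7 CPM under BPA and 185 ± 9.28 CPM in untreated cultures and Ret at 432 ± 148 and 391 ± 10.8 CPM (SD, n = 3 each). The summed level of 10 Sertoli cell markers was 116 to 151 CPM under BPA and 48.3 to 64.9 CPM in untreated libraries, with Fshr and Rhox5 at 0 in all 6. Of these 10, 4 could be tested, and 2 were higher and 0 lower, where 4.37% of all tested genes were higher. Clu, most of the sum, was at 93.1 ± 12.4 CPM under BPA and 36.8 ± 5.95 CPM in untreated cultures (edgeR adjusted p = 0.002). Sox9 was at 24.5 ± 5.01 and 8.64 ± 0.55 CPM (edgeR adjusted p = 0.0104; SD, n = 3 each). Wt1 and Amhr2, with log2 fold changes of 0.91 and -1.91, did not pass. The 10 fibroblast markers summed to 139 to 185 CPM under BPA and 163 to 245 CPM in untreated libraries. The 14 germ cell markers summed to 2153 to 2707 CPM under BPA and 2889 to 2918 CPM in untreated libraries. The 5 macrophage markers in the table summed to 29.8 to 43.3 CPM under BPA and 56.5 to 60.6 CPM in untreated libraries. Most of the macrophage sum came from Cd68, at 33.6 ± 8.58 and 50.9 ± 2.29 CPM (SD, n = 3 each), which did not pass (edgeR adjusted p = 0.14). The 4 markers of smooth muscle or peritubular myoid cells summed to 12.5 to 16.3 CPM under BPA and 20.5 to 42.5 CPM in untreated libraries, with Tagln lower (log2 fold change -1.84, edgeR adjusted p = 0.033). The part of these markers in the results below was not tested. In bulk RNA, fewer cells of a type and less RNA per cell cannot be told apart.

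NRF2, a transcription factor that binds the antioxidant response element, is known to induce several genes of this kind. The start regions of 3 of the 5 genes that fell under BPA are shown. They include both regions that held a match to that element, so they do not stand for all 5. RefSeq (GRCm38.p6) gave 250 bases before to 50 bases after the start for 9 of the 10 genes. The capitals mark the core of that element, TGACNNNGC, found on either strand. The regions read 5′ to 3′ on the gene's strand and lie at chr4:116685349-116685648 on the plus strand for Prdx1, at chr16:90220512-90220811 on the plus strand for Sod1 and at chrX:155338411-155338710 on the minus strand for Prdx4.
Prdx1: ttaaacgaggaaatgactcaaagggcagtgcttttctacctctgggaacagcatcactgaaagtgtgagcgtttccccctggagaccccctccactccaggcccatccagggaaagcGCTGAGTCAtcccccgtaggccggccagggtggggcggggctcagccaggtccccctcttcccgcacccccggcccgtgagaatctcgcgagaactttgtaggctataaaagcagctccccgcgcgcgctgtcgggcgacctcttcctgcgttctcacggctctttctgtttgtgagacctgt
Sod1: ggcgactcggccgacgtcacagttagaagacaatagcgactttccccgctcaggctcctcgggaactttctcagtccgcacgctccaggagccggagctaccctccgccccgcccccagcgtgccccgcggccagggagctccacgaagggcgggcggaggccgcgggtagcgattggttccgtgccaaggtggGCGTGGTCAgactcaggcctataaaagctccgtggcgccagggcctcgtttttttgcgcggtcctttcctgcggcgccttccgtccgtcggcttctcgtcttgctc
Prdx4: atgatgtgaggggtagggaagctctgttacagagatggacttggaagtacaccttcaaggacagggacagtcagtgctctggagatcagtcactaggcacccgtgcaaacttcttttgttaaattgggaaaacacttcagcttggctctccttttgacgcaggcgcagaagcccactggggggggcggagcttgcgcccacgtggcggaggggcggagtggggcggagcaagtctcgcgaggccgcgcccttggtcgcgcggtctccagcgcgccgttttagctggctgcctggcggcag
Prdx1 held 1 match, which began at position -133 from the start, and Sod1 held 1, which began at -56. Both read on the strand opposite to the gene. The Prdx4 region and those of the other 6 genes held none. For Prdx4 the region lies within the counted gene, which on the minus strand begins at 155340754. Sequence before that outer end was not searched. Of all 32851 such regions 12.4% held a match, so 2 of 9 is a description and not a site. Neither the core of the ATF4 site, TGATGNAA, nor the FOXO site TGTTTAC was found on either strand in any of the 9 regions, and they occurred in 3.97% and 3.65% of all regions. No motif matches overlapped.

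Under BPA, 5 of the 10 genes were lower and 0 higher at an edgeR adjusted p under 0.05, which is adjusted over all 13287 genes tested. They were Sod1, Prdx4, Prdx2, Prdx5 and Prdx1, whose levels under BPA were 54.5% to 65.8% of the untreated ones. DESeq2 and limma-voom also gave 0 higher genes, and at an unadjusted p under 0.05 the edgeR test added Prdx3 as lower. Over all genes tested, 6.28% were lower by the same test and 4.37% higher, or 10.6% in either direction. The median log2 fold change was -0.62 for the 10 genes and 0.10 for all tested genes, and it was below 0 for 9 of the 10, against 44.6% of all tested genes. BPA and untreated CPM values did not overlap, with BPA lower, for 7 of the 10, against 15.7% of all tested genes. Abundance bears on these counts: among the 2161 tested genes with a mean of at least 100 CPM, 18.5% were lower, and of the 10 genes 6 were in that range, including all 5 that fell. Each log2 fold change sets BPA over untreated, and SE is its standard error. The summed level of the 10 genes was 1973, 1787 and 1916 CPM under BPA and 3167, 3019 and 3006 CPM in untreated libraries, so every BPA library lay below every untreated one.

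**Figure D1:**
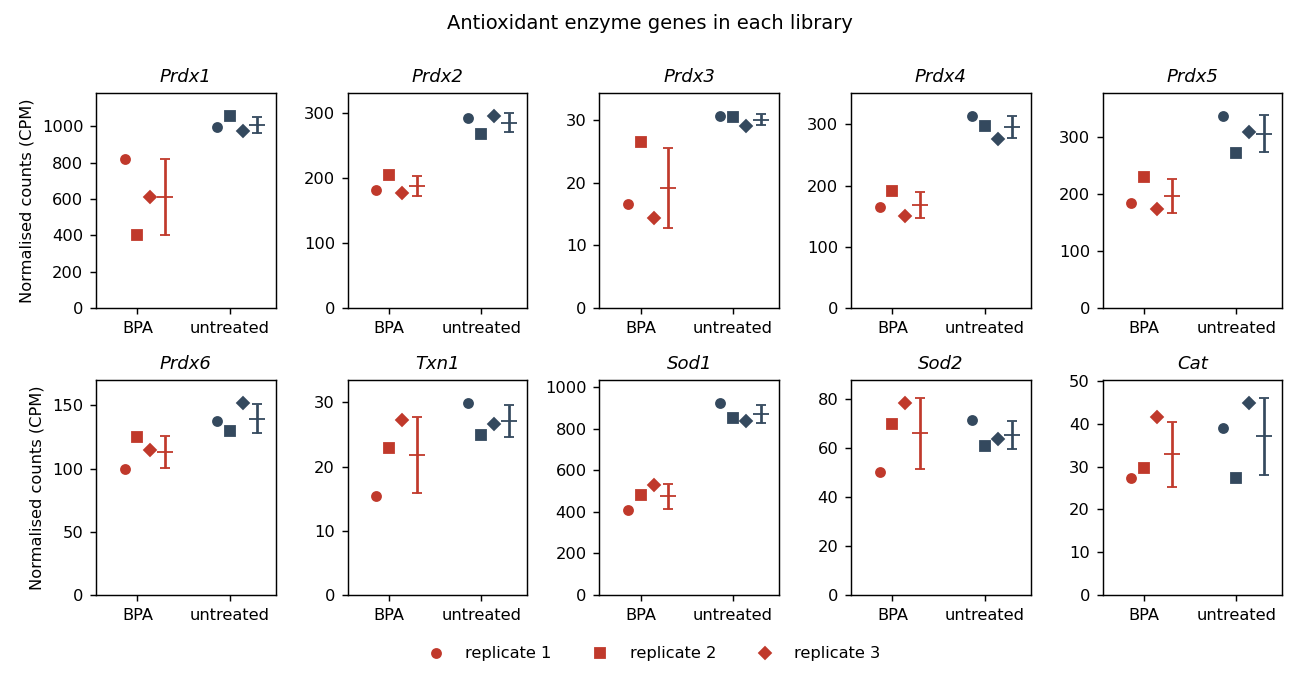
Normalised counts (CPM, each vertical axis from 0) of the 10 genes in each library, with BPA at the left and untreated at the right of every panel. Points are libraries, bars the mean ± SD of 3. BPA points lie below all untreated points for Prdx1 to Prdx6 and Sod1, and the groups overlap for Txn1, Sod2 and Cat.

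Sod1, the cytosolic dismutase (ENSMUSG00000022982, chromosome 16, 90220742 to 90226322, mm10), was the most abundant of the 10 per length and fell under BPA. It had 411, 482 and 529 CPM under BPA and 921, 853 and 836 CPM in untreated libraries. The groups were far apart, with the highest BPA library still well below the lowest untreated one. The log2 fold change was -0.88 (SE 0.14, edgeR adjusted p = 0.0021), which leaves 54.5% of the untreated level, and 10.1% of all tested genes had a fold change as low or lower. Whichever library was left out, Sod1 still passed (highest edgeR adjusted p = 0.0306). Its estimate, the lowest of the 10 without a correction, moved to -0.38 (edgeR adjusted p = 0.0343) when each library was corrected for GC content and gene length, and all 6 peroxiredoxins then lay lower. Prdx1 and Prdx4 also lay lower than Sod1 without BPA replicate 1, and Prdx3 and Prdx4 without BPA replicate 2.

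Sod2, the mitochondrial dismutase (ENSMUSG00000006818, chromosome 17, 13007839 to 13018119), had 50.1, 69.8 and 78.4 CPM under BPA and 71.7, 60.7 and 63.6 CPM in untreated libraries. The groups overlapped, with the lowest and the highest value both under BPA. Its log2 fold change was 0.02 (edgeR adjusted p = 0.98), with a 95% interval from -0.44 to 0.48, so a fall as large as that of Sod1 lay outside the interval. Within a library the ratio of Sod2 to Sod1 counts was 0.122, 0.145 and 0.148 under BPA and 0.0779, 0.0712 and 0.0761 in untreated cultures. No library of one group reached the other, and the log2 ratio was higher by 0.88 under BPA. The exact two-sided permutation test gave p = 0.1, the smallest that 3 against 3 libraries allow (adjusted p = 0.5 over 5 ratios). The ratio was not corrected for GC content and length. With that correction the log2 fold changes of Sod2 and Sod1 lay much closer together, at -0.17 and -0.38.

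Catalase, the peroxisomal enzyme (ENSMUSG00000027187, chromosome 2, 103453849 to 103485160), had 27.4, 29.6 and 41.6 CPM under BPA and 39.0, 27.3 and 44.8 CPM in untreated libraries. The values of the groups were interleaved. Its log2 fold change of -0.17 (SE 0.27, 95% interval -0.76 to 0.42, edgeR adjusted p = 0.75) did not pass the test. The interval still holds falls as large as that of Prdx1.

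Among the peroxiredoxins, Prdx4, which works inside the endoplasmic reticulum and passes the oxidising power of peroxide on to protein folding (ENSMUSG00000025289, chromosome X, 155323918 to 155340754), had the lowest log2 fold change. It had 165, 191 and 150 CPM under BPA and 313, 298 and 276 CPM in untreated libraries. The groups were well separated, and the spread within each was small beside the gap. The log2 fold change was -0.81 (SE 0.15, edgeR adjusted p = 0.0062), or 57.0% of the untreated level. Prdx1 lay lower than Prdx4 after the GC and length correction (-1.07 and -0.81) and without BPA replicate 1 (-0.98 and -0.79), and Prdx3 without BPA replicate 2 (-0.95 and -0.91). The call was lost without untreated replicate 1 (edgeR adjusted p = 0.0593) and held without each of the other 5 libraries. P4hb, the protein disulfide isomerase that takes part in the same folding reactions, also fell, with 1444, 1897 and 1522 CPM under BPA and 2227, 2399 and 2316 CPM in untreated libraries (log2 fold change -0.51, SE 0.13, edgeR adjusted p = 0.027). P4hb passed without BPA replicate 2 and missed the threshold without any other single library (edgeR adjusted p up to 0.145). The oxidase gene Ero1l, named here with its values known, makes peroxide in that compartment. It had 28.9, 31.2 and 55.0 CPM under BPA and 22.3, 29.7 and 16.9 CPM in untreated libraries (0.74, SE 0.32, edgeR adjusted p = 0.17).

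Prdx1, the main cytosolic peroxiredoxin and a classical NRF2 target (ENSMUSG00000028691, chromosome 4, 116685544 to 116700822), had 822, 403 and 610 CPM under BPA and 993, 1054 and 973 CPM in untreated libraries. All BPA values were lower in CPM, though not per length as given below. The BPA values differed among themselves about as much as the group means did, with the lowest in BPA replicate 2. The log2 fold change was -0.72 (SE 0.21, edgeR adjusted p = 0.044), which is close to the threshold. Prdx1 still passed without BPA replicate 1 or BPA replicate 2 (without the second, log2 fold change -0.49 and edgeR adjusted p = 0.0109). It missed without BPA replicate 3 and untreated replicates 1, 2 and 3 (edgeR adjusted p = 0.111, 0.146, 0.159 and 0.16), with upper quartile scaling (0.0553) and with scaling by library size alone (0.132). After the GC and length correction its estimate was lower, at -1.07 (edgeR adjusted p = 0.00018). Divided by Prdx1 within each library, the counts of Prdx3, Prdx4 and Txn1 overlapped between the groups (exact two-sided permutation p = 1, 1 and 0.4), and so did Cat divided by Prdx6 (p = 0.6; adjusted p = 1 for each over the 5 ratios).

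Prdx2, a second cytosolic peroxiredoxin (ENSMUSG00000005161, chromosome 8, 84969587 to 84974834), had 181, 205 and 178 CPM under BPA and 293, 269 and 295 CPM in untreated libraries. The log2 fold change was -0.60 (SE 0.14, edgeR adjusted p = 0.02). Prdx5, which is found in mitochondria, peroxisomes and the cytosol (ENSMUSG00000024953, chromosome 19, 6906697 to 6910106), had 185, 231 and 174 CPM under BPA and 337, 273 and 310 CPM in untreated libraries (-0.64, SE 0.16, edgeR adjusted p = 0.026). Neither gene's groups overlapped. Both passed without BPA replicate 2. Without any of the other 5 libraries they missed the threshold, with an edgeR adjusted p of at most 0.112 for Prdx2 and 0.145 for Prdx5. On the opposite strand, exons of Rnaseh2a and Junb cover 11.5% of the Prdx2 exon length, and exons of Trmt112 cover 19.1% of that of Prdx5. The library kit does not mark strand, so reads from those stretches cannot be assigned with certainty.

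Prdx3, the mitochondrial peroxiredoxin (ENSMUSG00000024997, chromosome 19, 60864051 to 60874556), had 16.6, 26.5 and 14.4 CPM under BPA and 30.6, 30.5 and 29.0 CPM in untreated libraries. Its estimate of -0.65 was as large as that of Prdx5, but with an SE of 0.29 it did not pass (edgeR adjusted p = 0.19). Without BPA replicate 2, the highest of the BPA values, it passed with a log2 fold change of -0.95 (edgeR adjusted p = 0.0226). Prdx6, which also has a phospholipase activity and relies on glutathione rather than thioredoxin (ENSMUSG00000026701, chromosome 1, 161240112 to 161251219), had 99.8, 125 and 115 CPM under BPA and 137, 129 and 152 CPM in untreated libraries. The groups of Prdx6 lay close together without overlapping in CPM, and the log2 fold change was -0.30 (SE 0.16, edgeR adjusted p = 0.28). It passed as lower after the GC and length correction (-0.62, edgeR adjusted p = 0.0123).

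Txn1, the cytosolic thioredoxin that recharges thioredoxin-dependent peroxiredoxins of the cytosol (ENSMUSG00000028367, chromosome 4, 57943373 to 57956411), had 15.4, 22.8 and 27.2 CPM under BPA and 29.9, 24.9 and 26.6 CPM in untreated libraries. The highest BPA value exceeded the lower untreated ones. The log2 fold change of -0.31 (SE 0.29, 95% interval -0.94 to 0.31, edgeR adjusted p = 0.54) did not pass. Reads of Txn1, Prdx1, Prdx2 and Sod1 can fit processed pseudogenes too: GENCODE vM21 lists 5 copies of these genes with at least 95% identity over at least 100 bases. The 2 copies with a row in the table, Tdpx-ps1 of Prdx2 and Txn-ps1 of Txn1, held at most 15 counts in a library, and the other 3, of Prdx1 and Sod1, are not analysed here. How reads that fit a gene and its copy equally well were counted is not given in the sources used here, so the levels of these 4 genes are uncertain.

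**Figure D2:**
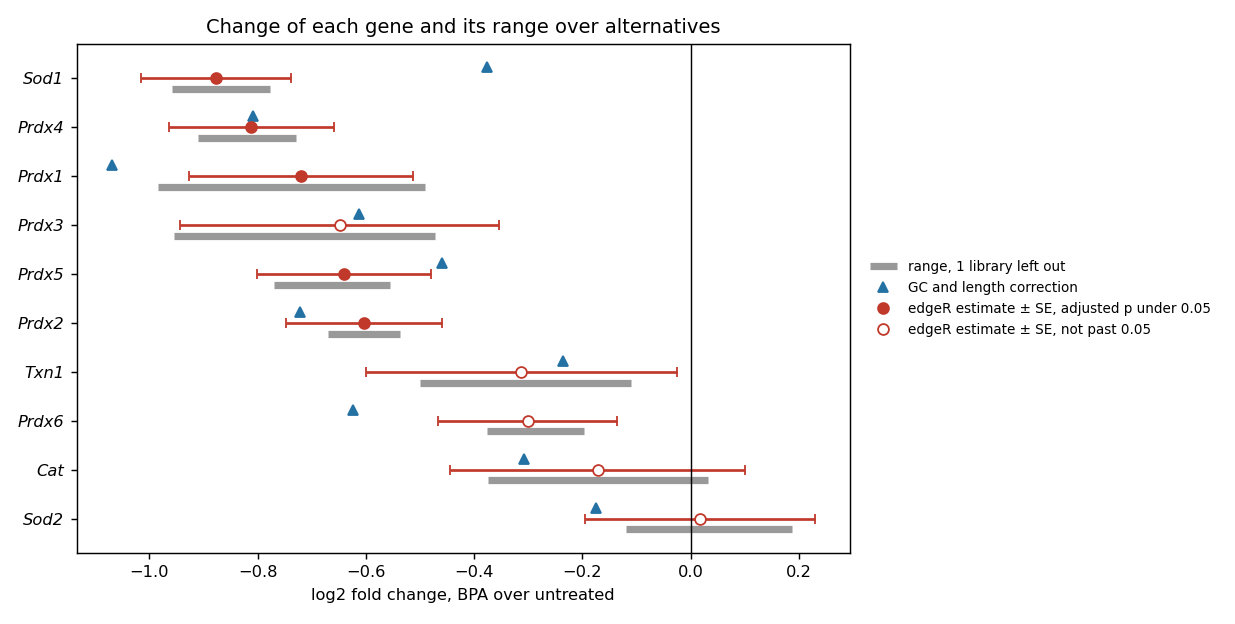
Log2 fold change (horizontal axis, BPA over untreated) of the 10 genes, as the edgeR estimate ± SE, filled where the adjusted p was under 0.05. Grey bars span the estimates with 1 library left out, and triangles give the estimate after the GC and length correction, which was -0.38 for Sod1 and -0.62 for Prdx6.

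Genes of a short length, as recovered from the deposited FPKM values, tended to be lower under BPA across the whole table. The rule behind these lengths is not given in the sources used here. For Sod1 the length was 646 bases, against 641 for its longest coding transcript and 3970 for its exon union in GENCODE vM21. For Sod1 and Sod2 the gene bounds in GENCODE vM21 differ from the deposited ones, so that union may not match the gene that was counted. In the shortest 10% of the tested genes, which holds Sod1, Prdx3 and Txn1, the median log2 fold change was -0.29 and 12.5% of genes were lower. In the longest 10% the median was 0.37 and 1.43% were lower. Among genes of 3307 to 4164 bases, a class that holds Prdx1, Prdx5 and Sod2, it was 0.049. The median also fell with GC content, and was 0.40 in the 10% of genes with the lowest GC content and -0.16 in the 10% with the highest. The part of length and GC content in the fall of each gene was not tested beyond the correction above, under which all 5 genes still passed.

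**Figure D3:**
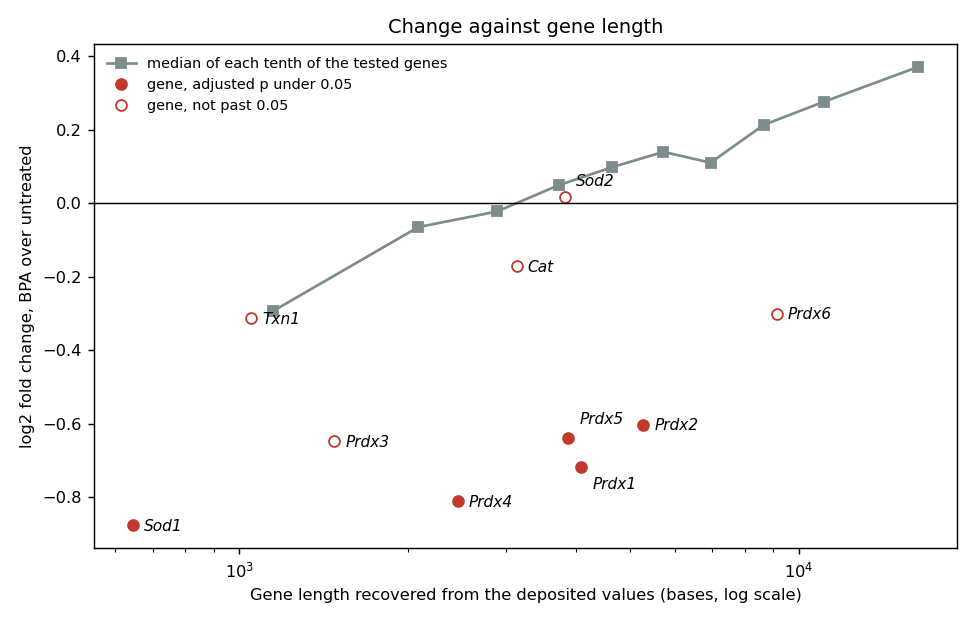
Log2 fold change (vertical axis, BPA over untreated) against gene length in bases on a log scale. Squares give the median of each 10% of the tested genes, which runs from -0.29 to 0.37, and circles the 10 genes, filled where the adjusted p was under 0.05. All but Sod2 lie below 0.

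The order of the genes by level was compared per length, as TPM (counts per base relative to the sum over all genes), with the longest coding transcript of GENCODE vM21 as length. Sod1 was the most abundant, at 1537 ± 238 TPM under BPA and 2405 ± 79.7 TPM in untreated cultures. Prdx1 followed at 560 ± 213 TPM under BPA and 778 ± 28.8 TPM in untreated cultures, then Prdx4 at 352 ± 19.4 and 529 ± 13.6 TPM, Prdx5 at 322 ± 25.4 and 431 ± 47.3 TPM, and Prdx2 at 242 ± 2.47 and 315 ± 25.2 TPM (SD, n = 3 each). Much lower lay Prdx6, with 98.1 ± 8.49 TPM under BPA and 104 ± 12.5 TPM in untreated cultures, and Txn1, with 43.2 ± 12.9 and 45.7 ± 4.01 TPM. Prdx3, Cat and Sod2 had the lowest levels, each under 40 TPM in both groups. In TPM the groups of Prdx1 overlapped, with 761 in BPA replicate 1 and 745 in untreated replicate 1. Those of Prdx6 overlapped too, with 105 TPM in BPA replicate 3 and 94.4 TPM in untreated replicate 2. The order was the same in both groups on this scale, but neighbours were not all apart: under BPA the values of Prdx1 and Prdx4, of Prdx4 and Prdx5, of Txn1 and Prdx3, and of Prdx3, Cat and Sod2 overlapped, and in untreated cultures those of Cat and Sod2. With the gene lengths behind the deposited FPKM values, the first 5 places stayed and Prdx6 dropped to rank 9, since its length there is 9135 bases against 2387 for the transcript. Sod2, with 3824 bases against 5861, moved from rank 10 to rank 7 under BPA and 8 in untreated cultures. Prdx3 was then at rank 8 under BPA and 7 in untreated cultures, so on that scale the order differed between the groups.

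Prdx1 and Sod1 gave the largest parts of the set's counts on average. Prdx1 gave 41.6%, 22.6% and 31.8% of the summed counts of the 10 genes under BPA and 31.4%, 34.9% and 32.4% in untreated libraries, with both extremes under BPA. Sod1 gave 20.8%, 27.0% and 27.6% under BPA and 29.1%, 28.3% and 27.8% in untreated libraries, so its share was lower in each BPA library, by a narrow margin in the third. Sod2 gave 2.54%, 3.91% and 4.09% under BPA and 2.26%, 2.01% and 2.12% in untreated libraries, so its share was higher in each BPA library while its own CPM values overlapped. The share of Prdx6 was also higher in each BPA library, at 5.06%, 6.99% and 5.99% under BPA and 4.34%, 4.29% and 5.04% in untreated libraries. By compartment, the 5 cytosolic genes summed to 1409 ± 151 CPM under BPA and 2329 ± 46.4 CPM in untreated cultures. Prdx3, Prdx5 and Sod2, which are all found in mitochondria, summed to 282 ± 39.9 CPM under BPA and 402 ± 37.8 CPM in untreated cultures (SD, n = 3 each). Most of that sum, and nearly all of its difference, came from Prdx5, which averaged 197 CPM under BPA and 307 CPM in untreated cultures and is not confined to mitochondria.

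**Figure D4:**
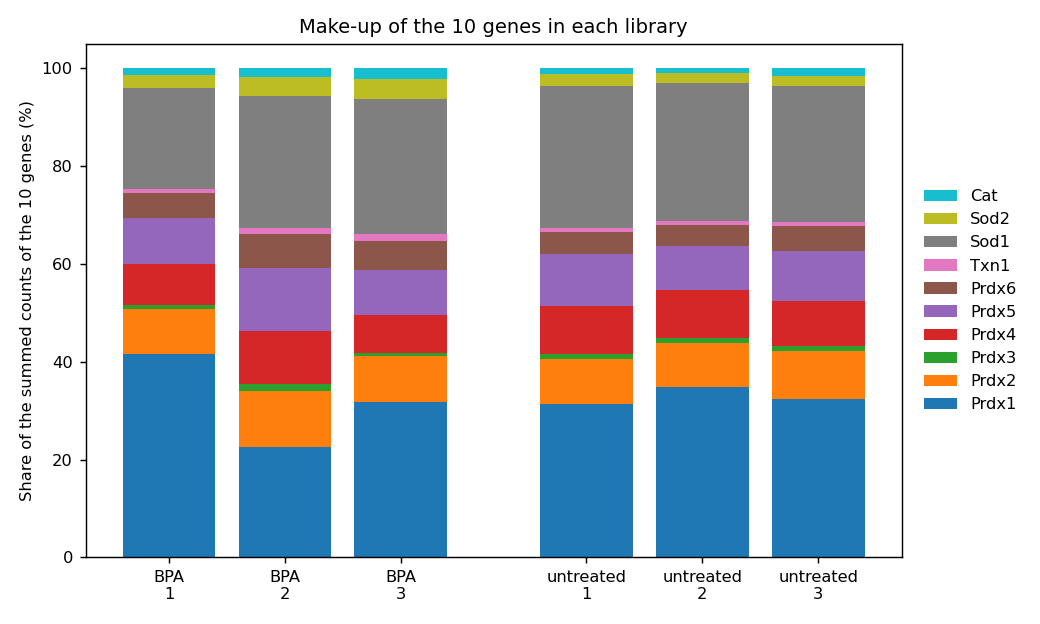
Share of each gene (%, vertical axis) in the summed counts of the 10 genes, with 1 bar per library, BPA at the left and untreated at the right. Prdx1 ranged from 22.6% to 41.6% under BPA and from 31.4% to 34.9% in untreated libraries.

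A list of 20 genes that reduce, repair, bind or work beside thioredoxin and the peroxiredoxins had 2 members higher and 5 lower under BPA, with 13 that did not pass. Over all tested genes 4.37% were higher and 6.28% lower, and 18.5% were lower among those of at least 100 CPM. The median log2 fold change was -0.34 for the list and 0.10 for all tested genes. The higher ones were Sesn2 and Txnip, and the lower ones Glrx, Srxn1, Txnrd1, Glrx5 and P4hb. Of the lower ones, Txnrd1, Glrx5 and P4hb had a mean of at least 100 CPM, and Glrx and Srxn1 did not. The share of 18.5% therefore does not apply to the list as a whole. Txnip, which encodes a protein that binds thioredoxin and blocks it, had 593, 515 and 591 CPM under BPA and 190, 217 and 210 CPM in untreated libraries. Every BPA value was more than 2 times every untreated one, and the log2 fold change was 1.46 (SE 0.14, edgeR adjusted p = 7.6e-05). Sesn2, a stress-induced sestrin that has been linked to peroxiredoxin repair and to restraint of the growth kinase mTORC1, had 519, 705 and 418 CPM under BPA and 63.6, 81.2 and 86.8 CPM in untreated libraries (2.83, SE 0.21, edgeR adjusted p = 1.1e-05). The groups of Sesn2 were the furthest apart in the list.

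Srxn1 encodes sulfiredoxin, which restores peroxiredoxins whose cysteine has been over-oxidised. It had 25.9, 34.2 and 39.3 CPM under BPA and 99.1, 83.0 and 72.6 CPM in untreated libraries, with no overlap (log2 fold change -1.36, SE 0.23, edgeR adjusted p = 0.003). Txnrd1, the cytosolic thioredoxin reductase, had 133, 124 and 144 CPM under BPA and 204, 220 and 243 CPM in untreated libraries (-0.73, SE 0.15, edgeR adjusted p = 0.011). Glrx, the cytosolic glutaredoxin, had 13.5, 16.7 and 9.26 CPM under BPA and 48.5, 33.7 and 43.0 CPM in untreated libraries (-1.67, SE 0.30, edgeR adjusted p = 0.0046). For all of these the BPA libraries lay below the untreated ones. Txnip, Sesn2, Srxn1 and Glrx passed whichever library was left out. Txnrd1 missed the threshold without BPA replicate 1, untreated replicate 2 or untreated replicate 3 (edgeR adjusted p up to 0.0597).

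Glrx5, a mitochondrial glutaredoxin of iron-sulphur cluster assembly, was at 98.4 ± 17.2 CPM under BPA and 158 ± 9.14 CPM in untreated cultures (-0.69, edgeR adjusted p = 0.028; SD, n = 3 each). It passed without BPA replicate 2 and missed without any of the other 5 libraries (highest edgeR adjusted p = 0.136). It also missed once GC content and length were corrected for (-0.29, edgeR adjusted p = 0.159). The mitochondrial counterparts Txn2 and Txnrd2, chosen after their values were seen, were at -0.34 and -0.34 (edgeR adjusted p = 0.28 and 0.46). Leaving out BPA replicate 2 brought Txn2 past the threshold (edgeR adjusted p = 0.0248). Among the abundant genes that did not pass, Glrx3 was at -0.47 (SE 0.14, edgeR adjusted p = 0.0501), Txnl1 at -0.22 and Nxn at -0.41 (0.55 and 0.19). Glrx3 passed in 7 of 10 other settings and without BPA replicate 2, and Nxn also passed without that library (edgeR adjusted p = 0.0159 and 0.0466).

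A list of 20 helpers of the dismutases and of catalase, other peroxidases and regulators had 1 member higher and 3 lower, with 16 that did not pass. Over all tested genes the shares were again 4.37% higher, 6.28% lower and 18.5% lower among those of at least 100 CPM. The lower ones were Gpx1, Gpx4 and Atox1, of which Atox1 was below 100 CPM, so the 18.5% does not apply to the whole list. The median log2 fold change was -0.11 for the list and 0.10 for all tested genes. The glutathione peroxidase Gpx1 had 308, 342 and 277 CPM under BPA and 546, 509 and 554 CPM in untreated libraries (-0.79, SE 0.14, edgeR adjusted p = 0.0041). Gpx4, which reduces lipid peroxides in membranes, had 662, 765 and 584 CPM under BPA and 1194, 1067 and 1058 CPM in untreated libraries (-0.72, SE 0.14, edgeR adjusted p = 0.0068). In both, no BPA library reached the untreated range. Gpx1 passed whichever library was left out, and Gpx4 missed without untreated replicate 1 (edgeR adjusted p = 0.0675).

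Copper reaches SOD1 through dedicated chaperones. Atox1, which carries copper to the secretory pathway, was at 11.5 ± 1.02 CPM under BPA and 26.4 ± 8.45 CPM in untreated cultures (-1.20, SE 0.32, edgeR adjusted p = 0.034; SD, n = 3 each). It passed without BPA replicate 2 or untreated replicate 3, and missed without any of the other 4 libraries (highest edgeR adjusted p = 0.189). It also missed once GC content and length were corrected for (-0.60, edgeR adjusted p = 0.152). Ccs, the chaperone that loads copper into SOD1 and that was picked with its values known, was at 19.6 ± 2.04 CPM under BPA and 19.4 ± 1.37 CPM in untreated cultures (0.01, 95% interval -0.59 to 0.62, edgeR adjusted p = 0.98; SD, n = 3 each), and its estimate moved to 0.49 after the GC and length correction (edgeR adjusted p = 0.189).

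Foxo3, a transcription factor known to induce Sod2 and Cat, rose. It had 108, 154 and 104 CPM under BPA and 57.6, 68.0 and 47.6 CPM in untreated libraries (1.08, SE 0.21, edgeR adjusted p = 0.0085), and every BPA value exceeded every untreated one. The call was lost without untreated replicate 1 (edgeR adjusted p = 0.0621). Its relative Foxo1 was at 0.79 (SE 0.24, edgeR adjusted p = 0.058), and passed in 4 of 10 other settings. Nfe2l2, which encodes NRF2, had 45.4, 40.9 and 51.8 CPM under BPA and 67.2, 61.1 and 69.7 CPM in untreated libraries. Its groups did not overlap, but its fold change of -0.52 (SE 0.20, edgeR adjusted p = 0.12) did not pass. It passed after the GC and length correction (-0.77, edgeR adjusted p = 0.0052). Pex5, the receptor that brings catalase into peroxisomes, was at 116 ± 23.7 CPM under BPA and 109 ± 14.9 CPM in untreated cultures (edgeR adjusted p = 0.82; SD, n = 3 each).

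**Figure D5:**
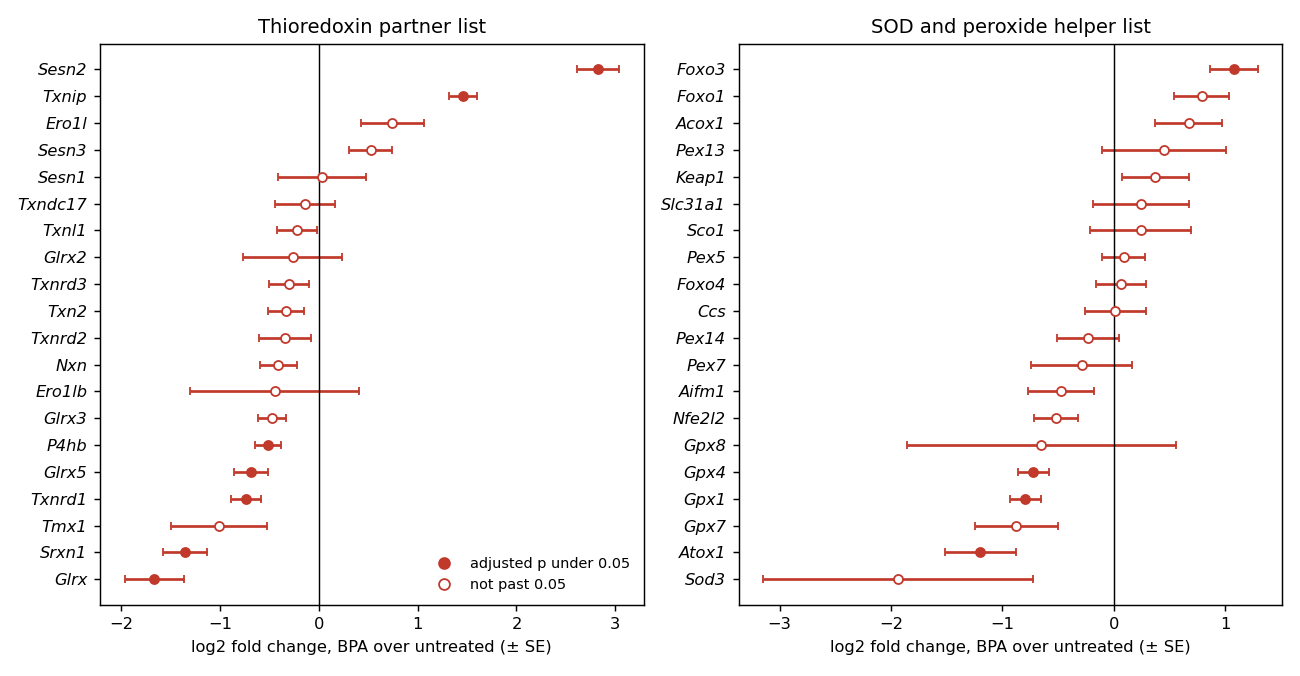
Log2 fold change ± SE (horizontal axis, BPA over untreated) of the thioredoxin partner list at the left and the list of dismutase and peroxide helpers at the right, filled where the edgeR adjusted p was under 0.05. Sesn2 at 2.83, Txnip at 1.46 and Foxo3 at 1.08 are the filled points right of 0.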

How the data were processed

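Per the labels' protocols, RNA was isolated with a miRNeasy kit, and libraries were built with Illumina's TruSeq RNA kit v2, a kit without strand marks. The submitters' processing notes name TopHat2 2.0.9, HTSeq and mm10. For the strand setting and the annotation used in counting, nothing is given in the sources used here. The authors deposited raw gene counts and FPKM values, 1 column of each per sample, matched to samples by the code in each title. The deposited FPKM values served only to recover gene lengths, which agreed between libraries to within a relative deviation of 2.58e-05. That agreement shows that each gene had the same length in every library, not that the lengths are right. Of the genes compared with GENCODE vM21, 20.6% had a length within 1% of the exon union. For 25.1% it lay within 1% of the sum of transcript lengths. All tests used the deposited counts.

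The test was the quasi-likelihood test of edgeR 4.0.16 in R 4.3.3, with 3 BPA and 3 untreated libraries and no covariate. Genes passed filterByExpr, scaling used the trimmed mean of M-values, and p-values were adjusted after Benjamini and Hochberg over all 13287 genes (threshold 0.05). The SE is the log2 fold change over the square root of F. Ratios were tested by exact permutation. Pseudogene copies were found with blastn 2.17.0, and figures drawn with matplotlib 3.10.9. The fits were tested on simulated counts with 200 changed genes. There edgeR made 106 calls, of which 2 were false. It called 42.55% of the 2-fold and 66.67% of the 4-fold changes, so a gene that did not pass may still have changed.

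As alternatives the tests of DESeq2 1.42.0 and limma-voom (limma 3.58.1) were run. In edgeR the scaling (DESeq2's size factors, upper quartile, library size), the filter (none, or 1 CPM in 3 samples) and the FDR (0.01) were changed. A replicate block, pseudogene copies added, each library left out and a lowess correction (span 0.3) for GC content and length were also tried. The genes and lists were chosen with earlier results of these data known. Named were all 10 genes, and of the 2 lists each gene past the threshold and the 3 most abundant others.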

Additional observations from a re-analysis of the deposited data

How the results depend on the processing

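Sod1 kept its call in every setting tried, and all 5 genes that fell kept their direction in all of them. Of these 5, Prdx1 alone missed the threshold of 0.05 in a setting other than a library left out. The number lower of the 10 was 2 at an FDR of 0.01 and 1 to 6 with 1 library left out, and the number higher was 0 throughout. In the thioredoxin partner list 2 were lower at an FDR of 0.01 and 2 to 8 with 1 library left out. In the helper list 2 were higher with DESeq2, limma-voom, library size scaling or no low-count filter, and 0 to 1 higher and 1 to 3 lower with 1 library left out. Over all genes 938 were higher with DESeq2, 927 with no low-count filter, 155 at an FDR of 0.01 (322 lower) and 951 after the GC and length correction (1255 lower). With 1 library left out they were 162 to 1207 higher and 282 to 1600 lower, highest without BPA replicate 2. With library size scaling the median over all genes was 0.21 on the log2 scale, against 0.10, and that setting gave 831 higher and 786 lower genes, where the main counts were 580 and 835.

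Values near 0 changed sign. Sod2 was at -0.0015 with DESeq2, -0.0016 with its size factors, -0.0036 with a replicate block, -0.17 after the GC and length correction, and -0.021, -0.12 and -0.029 without BPA replicates 2 and 3 and untreated replicate 2. With 1 library left out it ranged from -0.12 to 0.19. Cat ranged from -0.37 to 0.031, above 0 without untreated replicate 3, and Pex5 from -0.089 to 0.21, below 0 without BPA replicate 2. Ccs was at -0.0034 with DESeq2 and -0.0035 with its size factors, and ranged from -0.071 (without BPA replicate 2) to 0.073 with 1 library left out. After the GC and length correction it was at 0.49 (edgeR adjusted p = 0.189). With 1 library left out, the difference in log2 ratio, BPA minus untreated, was 0.83 to 0.97 for Sod2 to Sod1, -0.45 to 0.40 for Prdx3 to Prdx1 and -0.40 to 0.22 for Prdx4 to Prdx1. It was 0.10 to 0.90 for Txn1 to Prdx1 and -0.030 to 0.28 for Cat to Prdx6. Its sign changed for Prdx3 to Prdx1 without BPA replicate 2 (-0.45), for Prdx4 to Prdx1 without BPA replicates 1 and 3 and untreated replicate 1 (0.22, 0.071 and 0.012), and for Cat to Prdx6 without BPA replicate 3 and untreated replicate 2 (-0.030 and -0.014). The cause of these moves was not tested.

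Same-numbered libraries hardly deviated together (correlations -0.021, 0.061 and 0.067), so the replicate numbers were not taken as pairs. Differently numbered libraries had correlations of -0.079 to 0.028, so those of replicates 2 and 3 with themselves were the highest, and a weak pairing cannot be told from these values. The replicate block gave 721 higher and 985 lower genes and called the same 5 of the 10 lower. For Prdx3, Txn1 and Cat, with means under 100 CPM, the 95% interval holds a change of the size seen for Prdx2, and that of Sod2 does not.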
